A study of Mus musculus with 3 samples.

Results

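The Hox genes of the mouse lie in 4 clusters, and the open chromatin in and beside them was described in the uterus on gestation day 4. Peaks of a FAIRE-seq list were taken when any base lay between the first and the last protein-coding gene named Hoxa, Hoxb, Hoxc or Hoxd plus a number, or within 10 kb of that span. This gave 24 of the 12413 peaks of the list, at 39 Hox genes. The peaks were taken by position alone, whatever their fold enrichment, coverage or width. FAIRE-seq sequences the DNA that stays free of crosslinked protein after phenol-chloroform extraction, which favours nucleosome-depleted stretches.

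All 3 samples were DNA of whole uteri, trimmed of connective tissue, from untreated adult C57BL/6J wild-type females of 6–10 weeks that had been mated with fertile males; blastocysts in the uterine flush marked them as pregnant. There was 1 group, with no control tissue and no other day. The peak table names no sample, so no value below carries an error between mice, no comparison was tested, and library depth is unknown. In whole tissue, fewer cells with an open site and less openness per cell cannot be told apart, and the cell types of the uterus were not separated. Of 11 genes used as a tissue check, 5 (45.5%) had a peak inside or within 10 kb, against 57.6% of all protein-coding genes: Pgr, Hand2, Nr2f2, Msx1 and Epcam. The muscle genes Myh11 and Acta2, the vessel gene Pecam1, the leukocyte gene Ptprc, and Esr1 and Foxa2 had none. A peak near a gene is no measure of its expression.

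Hox genes encode homeodomain transcription factors that give segments of the body axis their identity. Their order on the chromosome matches the order in which they are used, from paralogue group 1 at the anterior end to group 13 at the posterior end. In the female reproductive tract the posterior genes mark successive segments: Hoxa9 the oviduct, Hoxa10 the uterus, Hoxa11 the uterus and cervix, and Hoxa13 the upper vagina. Female mice that lack Hoxa10 or Hoxa11 have poor implantation and decidualization. The clusters also carry the microRNA genes of the miR-10, miR-196 and miR-615 families, some of which target Hox messenger RNAs.

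Some promoter windows of the Hoxd and Hoxa clusters are given first, and peak bases can be seen only in those of Hoxd. Each runs from 250 bases before to 50 bases after a start site listed by RefSeq (build GRCm38.p6), 5′ to 3′ along transcription, and capitals mark the bases that a FAIRE peak covered. Hoxd3 is shown for the peak with the highest fold enrichment, and Hoxd1 for the window covered almost whole. Hoxd10 is shown for the only summit found within 1 kb before a listed start. Hoxa10 and Hoxa11 are shown as the uterine genes, and their peaks began past the window, so they carry no capitals.
Hoxd1 (chr2:74762730-74763029, plus strand): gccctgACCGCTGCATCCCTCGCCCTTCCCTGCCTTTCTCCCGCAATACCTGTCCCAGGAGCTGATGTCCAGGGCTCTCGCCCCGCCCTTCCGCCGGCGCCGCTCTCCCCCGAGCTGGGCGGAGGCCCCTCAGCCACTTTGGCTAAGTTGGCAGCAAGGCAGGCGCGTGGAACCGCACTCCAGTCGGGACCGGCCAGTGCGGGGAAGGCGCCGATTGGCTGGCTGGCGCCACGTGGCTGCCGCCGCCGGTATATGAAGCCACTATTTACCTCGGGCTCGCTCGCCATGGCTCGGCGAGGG
Hoxd3 (chr2:74711743-74712042, plus strand): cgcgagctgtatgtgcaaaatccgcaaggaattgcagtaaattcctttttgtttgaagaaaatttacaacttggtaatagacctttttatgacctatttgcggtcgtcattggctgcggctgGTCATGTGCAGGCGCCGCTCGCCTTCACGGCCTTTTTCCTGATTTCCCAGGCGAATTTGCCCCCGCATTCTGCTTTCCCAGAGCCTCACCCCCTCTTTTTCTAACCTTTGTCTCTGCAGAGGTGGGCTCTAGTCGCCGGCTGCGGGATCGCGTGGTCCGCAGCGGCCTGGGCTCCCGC
Hoxd10 (chr2:74691641-74691940, plus strand): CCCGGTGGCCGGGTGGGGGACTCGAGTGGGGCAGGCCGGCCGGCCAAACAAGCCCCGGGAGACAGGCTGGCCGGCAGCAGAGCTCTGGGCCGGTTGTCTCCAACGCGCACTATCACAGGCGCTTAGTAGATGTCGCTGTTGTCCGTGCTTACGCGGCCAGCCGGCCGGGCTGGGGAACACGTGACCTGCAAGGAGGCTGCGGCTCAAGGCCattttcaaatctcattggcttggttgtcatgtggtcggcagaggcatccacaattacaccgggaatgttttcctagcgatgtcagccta
Hoxa10 (chr6:52234890-52235189, minus strand): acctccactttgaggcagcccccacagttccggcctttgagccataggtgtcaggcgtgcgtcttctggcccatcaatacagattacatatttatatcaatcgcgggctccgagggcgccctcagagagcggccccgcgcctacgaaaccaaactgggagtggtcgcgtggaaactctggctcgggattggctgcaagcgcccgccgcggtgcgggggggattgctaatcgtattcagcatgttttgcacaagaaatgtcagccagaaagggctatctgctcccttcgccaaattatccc
Hoxa11 (chr6:52245761-52246060, minus strand): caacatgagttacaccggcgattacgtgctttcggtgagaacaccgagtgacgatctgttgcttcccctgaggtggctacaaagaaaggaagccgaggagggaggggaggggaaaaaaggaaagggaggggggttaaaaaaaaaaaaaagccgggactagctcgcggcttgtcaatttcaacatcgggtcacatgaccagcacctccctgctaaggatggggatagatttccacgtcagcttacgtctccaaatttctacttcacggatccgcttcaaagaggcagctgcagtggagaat

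The peaks were spread over the clusters unevenly. Hoxd, on chromosome 2, held 10 peaks at 9 genes, or 8.55 per 100 kb of the span with its margins. Hoxa, on chromosome 6, held 7 at 11 genes (5.58 per 100 kb), Hoxb, on chromosome 11, 5 at 10 genes (2.58 per 100 kb), and Hoxc, on chromosome 15, 2 at 9 genes (1.47 per 100 kb). Together the 4 clusters held 4.20 peaks per 100 kb, against 0.484 over all chromosomes. Hox genes are packed closely, and per protein-coding gene the values lay nearer to each other, at 0.615 peaks per Hox gene against 0.577 per gene over the list. Per gene, Hoxd (1.11) and Hoxa (0.636) lay above that value, and Hoxb (0.5) and Hoxc (0.222) below it.

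**Figure D1:**
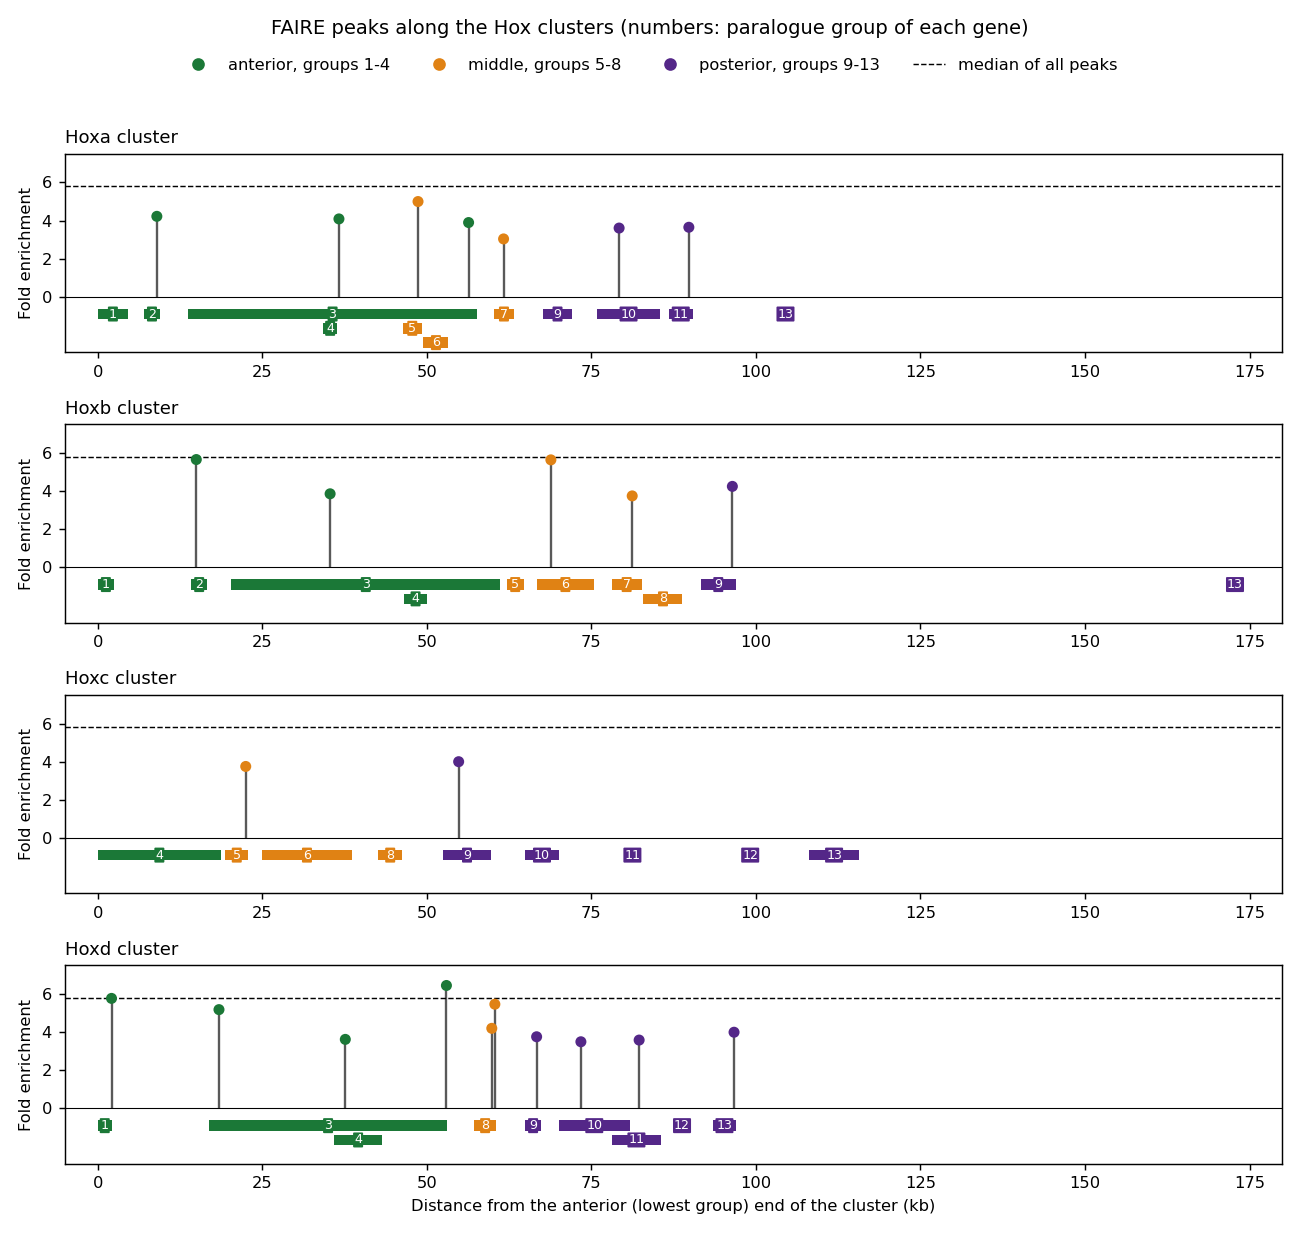
The 4 clusters drawn from their anterior end, with each peak as a stem at its summit (height: the authors' fold enrichment) and each Hox gene as a bar numbered by paralogue group. Hoxd carries peaks along its whole length, Hoxc has 2, and the posterior ends of Hoxb and Hoxc are empty; a single stem stands above the dashed median of all peaks.

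Every one of the 24 summits lay inside a Hox gene, and none fell between Hox genes or in the 10 kb margins. Hox genes take up 48.7% of the windows searched, and over the whole list 75.6% of summits lay inside a protein-coding gene. Of the 24 summits, 2 lay inside overlapping annotations of a pair of Hox genes, and 8 lay also inside a non-coding gene such as Hoxaas3 or Hoxd3os1. The nearest peak outside the margins lay 12142 bp beyond Hoxd, inside Evx2 (chr2:74655589-74656083, 3.75-fold), and the next lay 24645 bp beyond Hoxc4 (4.12-fold).

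Per 100 kb, the surrounding chromosome held fewer peaks than the clusters, except around Hoxc. Between 10 and 110 kb from the clusters, 5 peaks lay in 800 kb (0.625 per 100 kb), and between 110 and 510 kb, 26 peaks lay in 3200 kb (0.812 per 100 kb). Per protein-coding gene these flanks held 0.714 (7 genes) and 0.591 (44 genes), on either side of the 0.615 per Hox gene. Around Hoxc the farther flanks held 1.88 per 100 kb, above the 1.47 of the cluster itself. The keratin gene clusters, which share chromosomes 11 and 15 with Hoxb and Hoxc, held 2 peaks at 25 genes (0.189 per 100 kb) and 3 at 24 genes (0.426 per 100 kb). The folds of the keratin peaks were 6.91 and 12.9 on chromosome 11 and 5.12 to 9.22 on chromosome 15. No test was made of these differences.

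**Figure D2:**
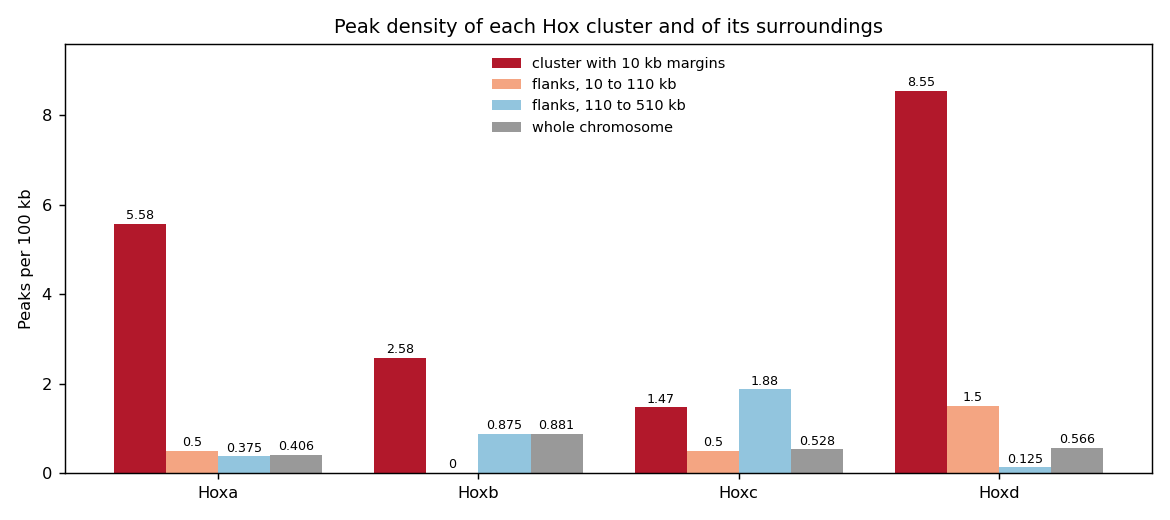
Peaks per 100 kb in each Hox cluster with its 10 kb margins, in its nearer and farther flanks, and over its whole chromosome. Hoxd (8.55) and Hoxa (5.58) stand far above their surroundings, Hoxb (2.58) less so, and Hoxc (1.47) lies between its nearer (0.5) and farther (1.88) flanks.

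The peaks of the clusters were lower than the typical peak of the list. Fold enrichment, the authors' ratio of a peak's coverage to its local background, had a median of 4.00 over the 24 peaks (range 3.04 to 6.45), against 5.80 over all peaks (range 1.58 to 23.6). A single Hox peak, at Hoxd3, lay above the median of the list, where by construction 50% of all peaks lie. Of the 24, 2 were among the 6207 peaks with the highest −log10 q, which again make up 50% of the list. The median coverage at the summit was 33 fragments, against 55 over the list. The median local background was also lower, 7.41 against 8.59, and the median width was 357.5 bp against 427 bp. Peaks within 1 kb of a protein-coding gene end showed the same order, with medians of 4.22 for 13 Hox peaks and 6.09 for 8963 peaks of the list.

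**Figure D3:**
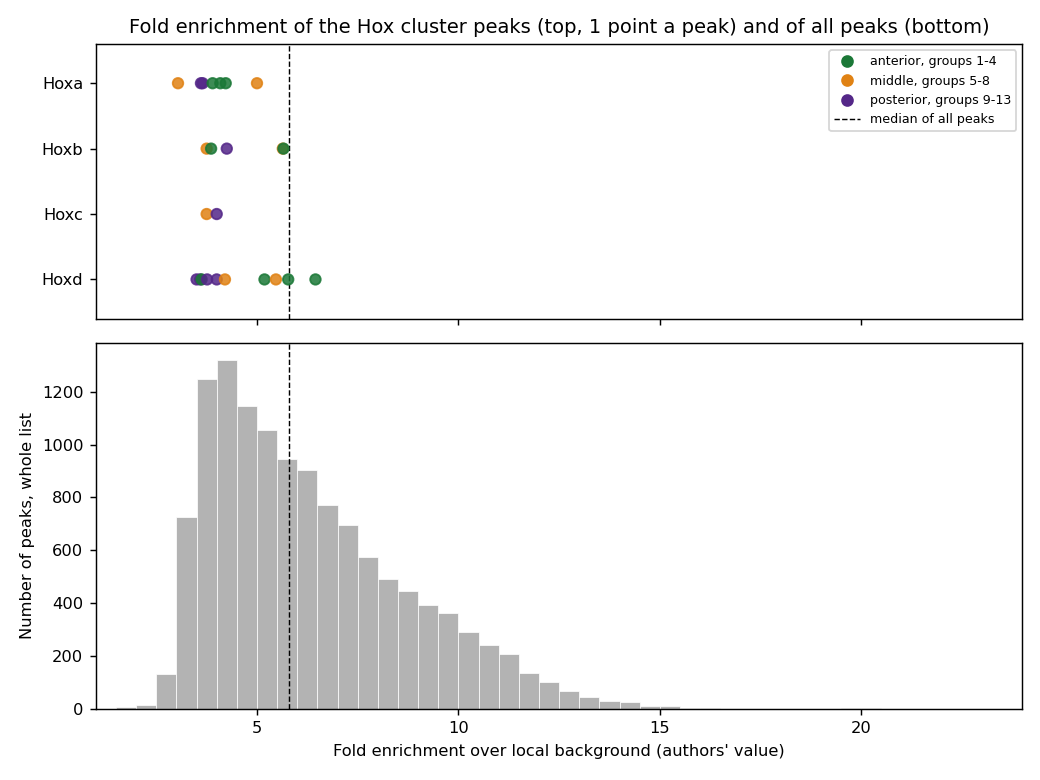
Fold enrichment of each Hox cluster peak, by cluster and coloured by paralogue band, over a histogram of all 12413 peaks. Of the 24 points, 23 lie left of the dashed median of the list (5.80), and the highest, at Hoxd3, reaches 6.45.

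Within the Hoxd cluster, the strongest signals lay at Hoxd1, Hoxd3 and Hoxd8. The Hoxd3 peak had the highest fold of all 24 (chr2:74711865-74712346, 6.45-fold, coverage 55), and 59.6% of the list lay below it. This peak lay at the Hoxd8 end of the long Hoxd3 annotation, between Hoxd4 and Hoxd8. Its 482 bp covered 178 of the 300 bases of the promoter window printed above. Hoxd3 takes part in the patterning of the neck vertebrae, and its gene body held 2 more peaks.

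Hoxd1, the most anterior gene of the cluster, had a wide peak of 795 bp (chr2:74762736-74763530, 5.77-fold, coverage 49) that covered 294 of its 300 promoter bases. This value lay next to the median of the list, with 49.8% of all peaks below. The peak also overlapped Haglr, a non-coding RNA gene beside Hoxd1, although its summit lay outside that gene. A peak inside the long Hoxd3 annotation (chr2:74746537-74746895) reached 5.18-fold, 1565 bp from the end of Hoxd3 on the Hoxd1 side.

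Hoxd8 carried a pair of peaks 67 bp apart. The first (chr2:74704645-74705060) had the highest coverage of the 24, 67 fragments, and 5.47-fold. The second (chr2:74705128-74705990) was the widest of the 24, 863 bp, at 4.20-fold. Their local backgrounds, 11.4 for each, were the highest of the 24, and both summits also lay inside the non-coding gene Gm38462.

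The posterior Hoxd genes, which pattern the digits and the urogenital tract, had weaker peaks. Hoxd13 had 4.00-fold (chr2:74668253-74668657), Hoxd9 3.76-fold (chr2:74698004-74698756), and Hoxd10 3.5-fold (chr2:74691635-74691851). A peak placed at Hoxd10 by the nearest gene end but lying inside Hoxd11 had 3.59-fold (chr2:74682462-74683044). These 4 values lay below those of the anterior and Hoxd8 peaks, with the exception of the peak inside Hoxd4 (chr2:74727352-74727609), at 3.62-fold. Hoxd12 had no peak in the gene, and its nearest lay 4757 bp away.

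In the Hoxa cluster all 7 peaks lay below the median fold of the list. Hoxa5, a gene of lung and thoracic development, had the strongest, 5.00-fold (chr6:52203784-52204239), which also lay inside the long annotation of Hoxa3. Hoxa2, a hindbrain and branchial arch gene, had 4.22-fold (chr6:52164224-52164489), and a peak 182 bp from Hoxa4 had 4.09-fold (chr6:52191885-52192104). The 4.09-fold peak also lay inside Hoxa3. The peak placed at Hoxa3 had 3.90-fold (chr6:52211601-52211832) and lay at the far end of that annotation, between Hoxa6 and Hoxa7. The Hoxa7 peak was the weakest of the 24, at 3.04-fold (chr6:52216910-52217126), with 1.34% of the list below it and 217 bp wide, the least width in the list.

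Hoxa10 and Hoxa11, the genes required for implantation, each had 1 weak peak inside the gene. The Hoxa10 peak reached 3.61-fold (chr6:52234419-52234774, coverage 34, 356 bp), with 8.41% of the list below it. The Hoxa11 peak reached 3.65-fold (chr6:52245069-52245497, coverage 31, 429 bp), with 9.74% below it. The Hoxa10 summit lay 347 bp past the inner of the gene's 2 listed starts, and no peak lay at the outer one, whose window was 3965 bp from the nearest peak. The Hoxa11 peak also lay partly in Hoxa11os, the antisense RNA gene of Hoxa11; the peak table has no strand. Hoxa9 had no peak in the gene and its nearest was 5971 bp away, while Hoxa13 had none within 10 kb, the nearest being 13356 bp away.

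Hoxb had 5 peaks, and the first pair by fold was close to the median of the list. Hoxb2, which patterns the hindbrain, had 5.66-fold (chr11:96353069-96353521), and Hoxb6 had 5.64-fold (chr11:96299245-96299542). The other three lay lower, at Hoxb9 with 4.25-fold (chr11:96271691-96271978), inside Hoxb3 with 3.86-fold (chr11:96332818-96333233) and at Hoxb7 with 3.75-fold (chr11:96286913-96287198). The one inside Hoxb3 was counted at Hoxb4, whose end was nearest, although 11297 bp away. Hoxb13, which lies apart from the rest, stood in a stretch with no peak that ran 206 kb outward from the Hoxb9 peak, of which 77.4 kb lay in the cluster.

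Hoxc had 2 peaks, both weak and narrow. The one in Hoxc9 (chr15:102981911-102982142, 232 bp) had 4.00-fold and the one in Hoxc5 (chr15:103014258-103014484, 227 bp) 3.75-fold. The posterior Hoxc10, Hoxc11, Hoxc12 and Hoxc13 all lay in a stretch with no peak that ran 235 kb outward from the Hoxc9 peak, of which 60.8 kb lay in the cluster. Hotair, a non-coding RNA gene in that stretch, had its nearest peak 33965 bp away.

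Along the axis of the clusters, posterior genes had fewer peaks per gene and lower folds, and the order of the folds rested on Hoxd. Anterior genes (groups 1 to 4) had 9 peaks at 12 genes, middle genes (groups 5 to 8) 7 at 11, and posterior genes (groups 9 to 13) 8 at 16, or 0.750, 0.636 and 0.5 per gene. Median folds were 4.22, 4.20 and 3.71, and the highest were 6.45, 5.64 and 4.25. Within Hoxd the medians were 5.48, 4.84 and 3.67, over 4, 2 and 4 peaks. The bands follow the gene named, and the Hoxd3 and Hoxa3 annotations are long. The 6.45-fold Hoxd3 peak lay 53.0 kb from the anterior end, between Hoxd4 and Hoxd8. The Hoxa3 peak lay at 56.4 kb, between Hoxa6 and Hoxa7. Counted by position, both would join the middle band. The anterior band would then no longer lead in peaks per gene or in the Hoxd median. Without Hoxd they were 4.09, 3.75 and 3.82, over 5, 5 and 4 peaks, and no longer fell along the axis. With so few peaks and no spread between mice, these orders are descriptions.

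**Figure D4:**
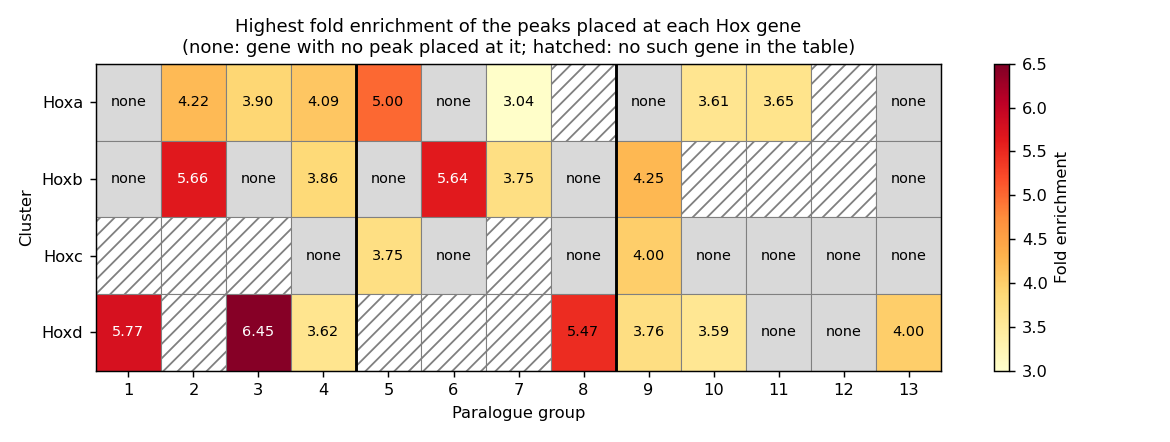
Highest fold enrichment of the peaks placed at each Hox gene by its nearest annotated end, with paralogue groups 1 to 13 across and clusters down; thick lines part the bands. Folds above 5 lie at Hoxd1, Hoxb2, Hoxd3, Hoxb6 and Hoxd8, and no posterior gene passes the 4.25 of Hoxb9.

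Of the 13 paralogue groups, 12 had a peak placed at one of their genes, and group 12 (Hoxc12 and Hoxd12) had none. Groups 2 and 7 had a peak at both of their genes, Hoxa2 (4.22-fold) with Hoxb2 (5.66-fold), and Hoxa7 (3.04-fold) with Hoxb7 (3.75-fold). In group 13, a peak lay at Hoxd13 (4.00-fold) and none within 10 kb of Hoxa13, Hoxb13 or Hoxc13. Group 9 had peaks at Hoxb9, Hoxc9 and Hoxd9 between 3.76-fold and 4.25-fold, and none at Hoxa9.

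Counted by gene, 31 of the 39 Hox genes (79.5%) had a peak within 10 kb or in the gene itself, against 57.6% of 21523 protein-coding genes. Neighbouring Hox genes share peaks, so these are not 31 separate observations. A peak lay inside 21 of the 39 (53.8%, against 48.8%). At an annotated gene end, with 1 kb on either side, the order was the other way round, with 13 of 39 (33.3%) against 44.5%. By cluster, 9 of 9 Hoxd, 10 of 11 Hoxa, 7 of 10 Hoxb and 5 of 9 Hoxc genes had a peak within 10 kb.

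The 8 Hox genes with no peak within 10 kb were mostly posterior. Hoxa13, Hoxb13, Hoxc10, Hoxc11, Hoxc12 and Hoxc13 made up 6 of them, and Hoxb1 and Hoxb4, both anterior, the rest. Posterior genes are also the largest band, and 10 of the 16 (62.5%) had a peak within 10 kb. This share was not below the 57.6% of all protein-coding genes. Their nearest peaks were 10013 bp away for Hoxc10, 11180 bp for Hoxb4, 12225 bp for Hoxb1, and up to 75081 bp for Hoxb13. Hoxc10 and Hoxb4 thus missed the 10 kb limit narrowly. All 11 middle genes had a peak within 10 kb.

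Where a start site was listed within 1 kb, all but 1 of the Hox summits lay past it, inside the transcribed gene. Within 1 kb of a listed protein-coding start lay 12 of the 24 summits, all in Hoxa and Hoxd, since few starts of Hoxb and Hoxc genes are listed. Of these, 11 (91.7%) lay downstream, at a median of 407 bp after the start. Over the list, 60.1% of 8137 such summits lay downstream, and their median position was 29 bp past the start (quartiles -43 and 160). Of the 11 downstream summits, the nearest to their starts were those of Hoxd1 (51 bp), Hoxd3 (159 bp) and the first Hoxd8 peak (178 bp), which were also the 3 strongest of the 12. The farthest were those of Hoxa11 (624 bp), the second Hoxd8 peak (645 bp) and Hoxd9 (686 bp). Hoxd10 alone had its summit before the listed start, at -168 bp, although still inside the annotated gene. The peaks of these 12 share clusters and neighbours, and no test was made.

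**Figure D5:**
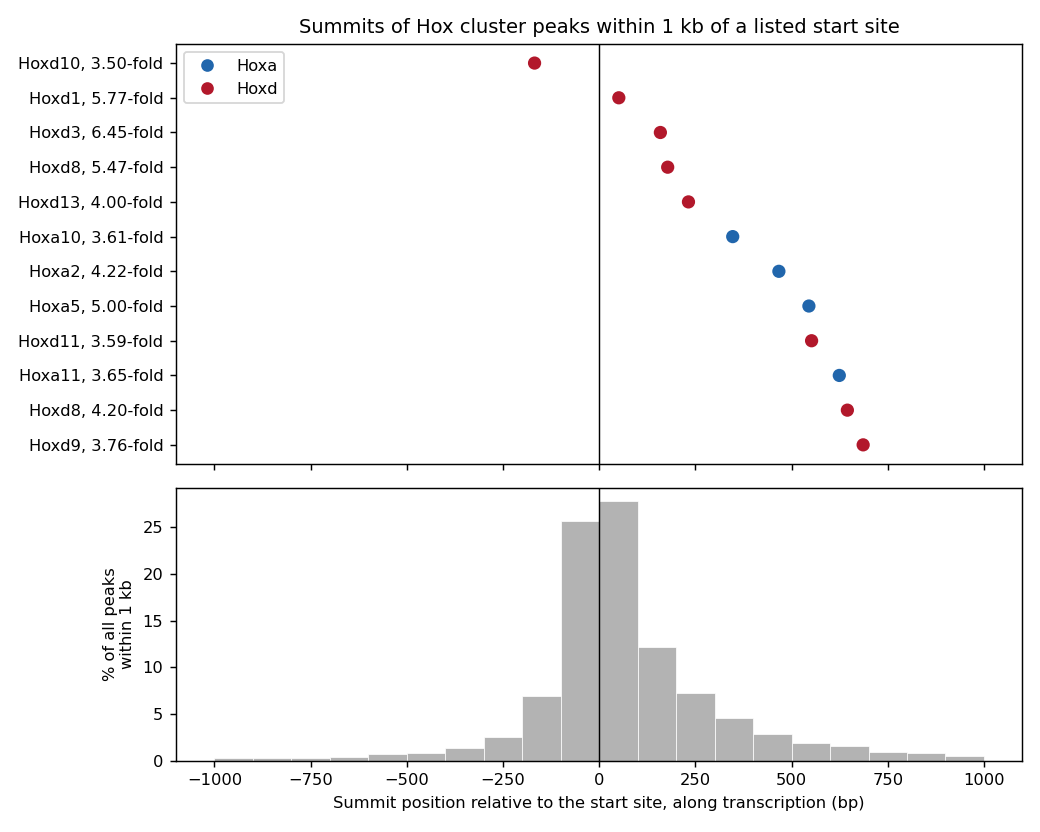
Upper panel: distance of the 12 Hox summits from the nearest listed protein-coding start along transcription, labelled by gene and fold; lower panel: the same for all peaks of the list, in 100 bp bins, as a percentage of the 8137 within 1 kb. Of the 12 points, 11 lie to the right of the start, with a median of 407 bp, whereas all peaks centre near the start, with a median of 29 bp.

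Windows were listed for 22 of the 39 Hox genes, and peaks overlapped those of 5 genes (Hoxd1, Hoxd3, Hoxd8, Hoxd10 and Hoxd13), against 29.9% of all 26794 genes with a listed window. Counted by window, 5 of 24 Hox windows (20.8%) were overlapped, against 27.7% of all 32619. At Hoxd13 and Hoxd8 the overlap was 22 and 20 bases, at the downstream edge. The distance from the window to the nearest peak was 116 bp at the inner Hoxa10 start, 264 bp at Hoxa11, 293 bp at Hoxa2 and 299 bp at Hoxa5. The number of CG dinucleotides had a median of 22 in the 5 overlapped windows and 13 in the other 19 Hox windows, against 27 and 4 in the overlapped and other windows of all genes. Hox windows without a peak were thus richer in CG than other windows without one. Hoxa13, with no peak within 10 kb, had the most of the Hox windows, 45.

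Known sequence motifs were searched on both strands of the 24 Hox windows, each motif counted without regard to overlap with another. CCAAT was found in 15 windows (62.5%, against 37.6% of all 32619 windows) and in all 5 with a peak. Of these 5, only the Hoxd1 window had it among the bases that the peak covered. At Hoxd3, Hoxd8, Hoxd10 and Hoxd13 it lay outside those bases. The share over all windows with a peak was not computed. GGGCGG, the GC box, was found in 10 (41.7%, against 35.9%), and TATAAA in 4 (16.7%, against 13.7%). TGATNNAT, the joint site of Hox proteins with Pbx cofactors, was found in 4 windows (16.7%, against 8.79%), those of Hoxa2, Hoxb1, Hoxb8 and Hoxd11. TTTATG, a site type preferred by posterior Hox proteins, was found in 5 (20.8%, against 11.9%), among them the Hoxd3 window printed above, where it begins at base 86, before the bases in capitals. TAATTA was found in 2 (8.33%, against 5.25%), both of Hoxd11. Among the 5 windows with a peak, GGGCGG was found in 2, TATAAA and TTTATG in 1 each, and TGATNNAT and TAATTA in 0. The palindromic site shared by the progesterone and glucocorticoid receptors was found in 0 of the 24, against 0.478% of all windows. The direct repeat bound by retinoic acid receptors was found in 0, against 0.00920%.

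The microRNA genes of the clusters lay near peaks to very different degrees. The mature sequences are given as RefSeq lists them (build GRCm38.p6), with the seed, bases 2 to 8, in capitals, to show which family members share a seed and so a set of candidate targets.
miR-10a-5p (Mir10a, chr11:96317186-96317208, plus strand): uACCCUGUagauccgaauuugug
miR-10b-5p (Mir10b, chr2:74726074-74726096, plus strand): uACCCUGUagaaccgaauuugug
miR-196a-5p (Mir196a-1, chr11:96265187-96265208, and Mir196a-2, chr15:102973365-102973386, plus strand): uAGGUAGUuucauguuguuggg
miR-196b-5p (Mir196b, chr6:52230129-52230150, minus strand): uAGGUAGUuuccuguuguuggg
miR-615-3p (Mir615, chr15:103014969-103014990, plus strand): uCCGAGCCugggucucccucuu
The miR-10 pair shares a seed and differs by U12A (miR-10a first, counted from the 5′ end), and the miR-196 pair shares a seed and differs by A12C (miR-196a first). Mir615 lay 426 bp from the Hoxc5 peak, 1 of only 2 in that cluster. Mir10b, in Hoxd, lay 1215 bp from the peak inside Hoxd4 (3.62-fold), whereas Mir10a, its counterpart in Hoxb, lay 15544 bp from the nearest. The miR-196 genes lay 4254 bp (Mir196b), 6426 bp (Mir196a-1) and 8477 bp (Mir196a-2) from theirs. No peak overlapped a hairpin.

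The genes that flank the clusters included some with stronger peaks than any Hox gene. Beside Hoxd, Lnpk had 11.5-fold at a gene end (chr2:74578614-74579180) and Mtx2 8.56-fold (chr2:74825685-74826199), both above any Hox peak. Evx1 and Evx2, homeobox genes next to Hoxa13 and Hoxd13, had peaks inside the gene of 5.65-fold (chr6:52316664-52317028) and 3.75-fold. Skap2 had 4.37-fold at a gene end, and Skap1, Snx10 and Ttll6 had none within 10 kb. Of the 19 flanking genes and cluster RNAs in the annotation, 13 (68.4%, against 57.6% of all protein-coding genes) had a peak within 10 kb. Many of these peaks are the Hox peaks given above. Most of the 19 are non-coding RNA genes, so the share over protein-coding genes is not a like measure.

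Pbx and Meis proteins bind DNA jointly with Hox proteins, and the peaks inside or within 10 kb of genes of this group are given by their values, with no count over the group. Pknox2 (7.26-fold), Pbx3 (7.15-fold) and Pbx4 (6.10-fold) had gene-end peaks above the median of the list, Pknox1 (5.80-fold) lay next to that median, and Meis2 (5.33-fold) lay below it. Meis1 had 4.87-fold 7663 bp outside the gene, Meis3 5.87-fold inside it, and the 12.6-fold peak near Pbx2 lay 4367 bp from that gene.

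Of 6 genes reported to respond to Hoxa10, 5 (83.3%) had a peak within 10 kb, against 57.6% of all protein-coding genes, a difference that was not tested. Ptger3, a prostaglandin E receptor gene, had 6.69-fold (chr3:157566707-157566995), Emx2, a homeobox gene, 5.92-fold, Itgb3, an integrin gene, 5.16-fold, and Ptger4 3.99-fold, all at gene ends. Cdkn1a, a cell cycle inhibitor gene, had 6.04-fold within 10 kb, and Igfbp1 had none, its nearest lying 10860 bp away. Of 6 genes that act upstream of Hox genes, 3 (50%, against the same 57.6%) had a peak within 10 kb: the retinoic acid receptor genes Rara (up to 8.63-fold) and Rarg (up to 5.32-fold), and Wnt7a (4.75-fold). Cdx2, Cdx4 and Rarb had none. A peak within 10 kb may belong to a neighbouring gene.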

How the data were processed

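FAIRE DNA of 3 whole uteri was sequenced. Per the submitters' processing notes, FastQC, Bowtie2, HOMER and MACS2 were used on build GRCm38.p5. The sources used here do not give threshold, control or pooling. The deposited columns hold, by their headers, each peak's pileup, taken here as coverage signal at the summit, its fold enrichment, taken as the ratio to local background, and its −log10 q-value. Local background was computed as (pileup + 1) / fold − 1. Depth is unknown, so no interval was given.

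Genes, promoter windows and miRNAs came from RefSeq (GRCm38.p6). Chromosome positions were taken to be the same in both patch releases. Genes starting below 3 Mb were left out. The gene table has no strand, and starts were listed for only some Hox genes, so peaks were placed by the nearest annotated gene end. Python 3.11.15 and pandas 2.3.3 were used, and the placement was tested on simulated peaks. Each peak of the clusters was named; a gene outside the lists was chosen after its values were seen. The Hox clusters as the subject, and so their members, and the lists were chosen with earlier results of these data known, although the rule for the peaks uses position alone. An item of the gene lists is not reported here.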

Additional observations from a re-analysis of the deposited data

How the results depend on the processing

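Results kept their values or moved little with no margin (24 peaks), with a 50 kb margin (26), and with the summit required inside (24). When a peak inside a Hox gene took that gene's group, the bands held 9, 7 and 8 peaks. This setting could not change the bands, since each peak it moved went to a gene of the same band. With the 6207 peaks of highest fold, 1 peak remained in all, 1 in Hoxd and 0 in Hoxa, Hoxb and Hoxc, with 1 anterior, 0 middle and 0 posterior; 3 Hox genes had it within 10 kb and 1 at a gene end. With the 6207 of highest −log10 q, 2 peaks remained (median 5.96-fold), 2 in Hoxd and 0 in the other clusters, with 1 anterior, 1 middle and 0 posterior; 5 genes had one within 10 kb and 2 at a gene end. These sets hold fewer peaks by construction. Gene-end windows of 5 kb gave 28 genes. Inside the gene only, 21 genes had a peak, and with 50 kb, 37. No replicate could be left out, since the table names no sample. No paired analysis was possible, since there was 1 group and no second condition. Unknown depth limits what an absent peak means: a site below the caller's threshold is not shown to be closed.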

Other observations

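Dense runs of peaks occur elsewhere in the list. Fixed tiles of 100 kb with at least 5 peaks, a number chosen after the values were seen, numbered 196 over all chromosomes. The 17 peaks of Hoxa and Hoxd had a median of 4.00-fold (interquartile range 3.62 to 5.00), against 4.98-fold (3.92 to 6.66) for the 1132 peaks of such tiles outside the Hox clusters. Of the 17, 1 (5.88%) lay above the median of the list, against 35.3% of the 1132. Rounded to 2 decimals, the commonest local background of the list, which is also its lowest, was found at 8 of the 24 Hox peaks (33.3%), against 17.4% of all peaks.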
